A study of Mus musculus with 8 samples.

Results

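Expression of 54 genes of DNA replication and of the G1/S transition was followed in mouse macrophages differentiated from bone marrow in culture, for which the labels use the abbreviation BMDM. The members were chosen by gene symbol, as components of origin licensing, helicase activation, DNA synthesis, nucleotide supply, chromatin copying and the cyclin E and E2F control of S phase entry. All 54 symbols are among the 24421 symbols of the count files, and all 54 passed the filter on low counts that left 11519 genes for testing. The CKO group consists of 4 libraries (replicates 2, 6, 7 and 8) from OPA1f/f; Lyz2-Cre mice, which carry floxed alleles of Opa1, a GTPase of the inner mitochondrial membrane, together with Cre recombinase expressed from the Lyz2 locus in myeloid cells. The FLOX group consists of 4 libraries (replicates 3, 4, 6 and 7) from OPA1f/f mice, which carry the same floxed alleles and no driver. The cells of both groups had been given interleukin 4 (IL-4), a cytokine of alternative activation, for 24 h, and no unstimulated library is compared. The age and sex of the mice are not in the labels used here. CKO differs from FLOX by the driver as well as by the deletion, and their parts in a difference cannot be told apart. Whether the 4 libraries of a genotype come from different mice is not in the labels, so the spread behind each p-value is that between libraries and may be technical.

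Before S phase, the origin recognition complex, Cdc6 and Cdt1 load the MCM helicase onto DNA, a step called licensing. Kinases then recruit Cdc45 and GINS, which turn the loaded MCM ring into an active helicase, and polymerases alpha, delta and epsilon copy the strands with the sliding clamp PCNA, its loader RFC and the single-strand binding protein RPA. Transcription of many of these genes in late G1 depends on E2F factors, which are held by the retinoblastoma family until cyclin-dependent kinases release them. Fully differentiated macrophages mostly rest outside the cycle, while macrophages in culture with growth factor and IL-4 can divide.

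The libraries hold 11764855 to 18939948 read pairs counted in genes. The level of Lyz2, the driver gene, separated the groups in every library, and the cause of its lower level in CKO was not tested. It averaged 2029 ± 250.4 CPM (counts per 1000000, with TMM-scaled library sizes) in CKO libraries and 7434 ± 597 CPM in FLOX libraries. Here and below, ± is the SD over the 4 libraries of a group (n = 4). Opa1 itself stood at 94.6 to 104.5 CPM in CKO and 103.6 to 130.3 CPM in FLOX and was not called (-0.19 on the log2 scale with an SE of 0.07, edgeR adjusted p = 0.0544). Whole-gene counts do not resolve the exons removed by Cre, so the deletion itself is not shown by these counts. The first principal component, with 70.2% of the variance, separated the groups. The second, with 12.7%, parted FLOX replicates 3 and 6 (19.7 and 11.2) from FLOX replicates 4 and 7 (-13.8 and -16.0). The CKO libraries lay between them, and the cause of this split was not tested. The 10 macrophage markers were present in all 8 libraries and summed to 7368 to 7974 CPM in CKO and 8311 to 8591 CPM in FLOX. Of the 10, 4 were called lower in CKO (Mertk at a log2 fold change of -0.78, Cd68 at -0.48, Csf1r at -0.42 and Trem2 at -0.33), 1 was higher (Fcgr1 at 1.04) and 5 were not called, and their part in the results below was not tested. The extraction text of the labels speaks of islets, but all 6 islet markers were at 0 in every library.

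Some of the member promoters hold short strings that match the E2F binding sequence, and 6 of them are shown here with that string in capitals, followed by that of Mcm2, which holds none. The sequences are RefSeq's on GRCm38.p6, the assembly of mm10, each a stretch of the window from 250 bases before to 50 bases after the annotated start, written 5′ to 3′ along the gene and lying outside exons of the annotation used. The strings searched, on both strands, were TTTCCCGC, TTTGGCGC, TTTCGCGC and TTTGCCGC, and overlapping matches were counted separately.

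Cdc6, chr11:98907991-98908050, plus strand: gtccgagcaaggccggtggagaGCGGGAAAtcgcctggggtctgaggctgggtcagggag
Mcm5, chr8:75109334-75109393, plus strand: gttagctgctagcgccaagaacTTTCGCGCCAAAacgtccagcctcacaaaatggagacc
Mcm6, chr1:128359736-128359825, minus strand: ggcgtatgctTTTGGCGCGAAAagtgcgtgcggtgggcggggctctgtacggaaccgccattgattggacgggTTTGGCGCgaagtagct
Pola1, chrX:93632256-93632315, minus strand: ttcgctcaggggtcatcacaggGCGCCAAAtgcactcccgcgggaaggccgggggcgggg
Uhrf1, chr17:56304103-56304162, plus strand, in the second of its 2 windows: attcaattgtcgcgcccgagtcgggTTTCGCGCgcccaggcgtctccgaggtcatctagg
E2f7, chr10:110745219-110745278, plus strand: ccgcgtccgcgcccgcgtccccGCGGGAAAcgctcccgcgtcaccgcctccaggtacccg
Mcm2, chr6:88898781-88898870, minus strand: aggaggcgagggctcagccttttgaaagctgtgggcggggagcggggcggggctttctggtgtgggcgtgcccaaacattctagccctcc

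Of the 45 members with a promoter window in the table, 17 (37.8%) held at least 1 of these strings, against 431 of 8895 tested genes with a window (4.85%) and 2.60% of all 27025 genes of the table. At least 2 matches were present in 6 members, Dnmt1, Mcm3, Mcm5, Mcm6, Mcm7 and Rfc3 (13.3% of 45, against 0.247% of the tested genes). In Mcm5 and in the upstream site of Mcm6 the capitals cover 2 overlapping matches, 1 on each strand. The strings TTTGAA and TTCGAA, the core of the cell cycle homology region of G2/M promoters, stood in 22.2% of the members, 16.3% of tested genes and 21.7% of all genes. The members with an E2F string had a median log2 fold change, CKO over FLOX, of 1.25 (n = 17, range 0.45 to 2.26), and those without had 1.10 (n = 28, range -0.42 to 1.99). A match is a description of the letters in the window and was not tested as a binding site. Gmnn, Mcm4, Gins1, Gins2, Gins4, Prim2, Pole, Rfc2 and Ccne2 had no window.

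Nearly all of the 54 members were more abundant in CKO than in FLOX macrophages. The list was chosen with earlier results of these data known, so its share of calls describes this list alone. Of the 54 members, 53 were higher in CKO at an adjusted p under 0.05 in edgeR's quasi-likelihood test (98.1%), and 1, the dUTPase gene Dut, was lower. Over all 11519 tested genes, 23.8% were higher and 21.6% lower by the same rule. The median log2 fold change of the members was 1.15, with a range from -0.42 to 2.41, and that of all tested genes was -0.02. Of the called members, 31 had an estimated rise of more than 2-fold (57.4% of all members), against 4.67% of tested genes. The test was against no change and not against 2-fold. Some of these members have intervals that reach below a log2 fold change of 1, such as Gins1 (0.72 to 1.31). In 51 members every CKO library stood above every FLOX library, which held for 22.7% of tested genes. Only Gins4 and Rfc2 had overlapping ranges. In bulk RNA, a larger share of dividing cells and more of these transcripts in each cell cannot be told apart.

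**Figure D1:**
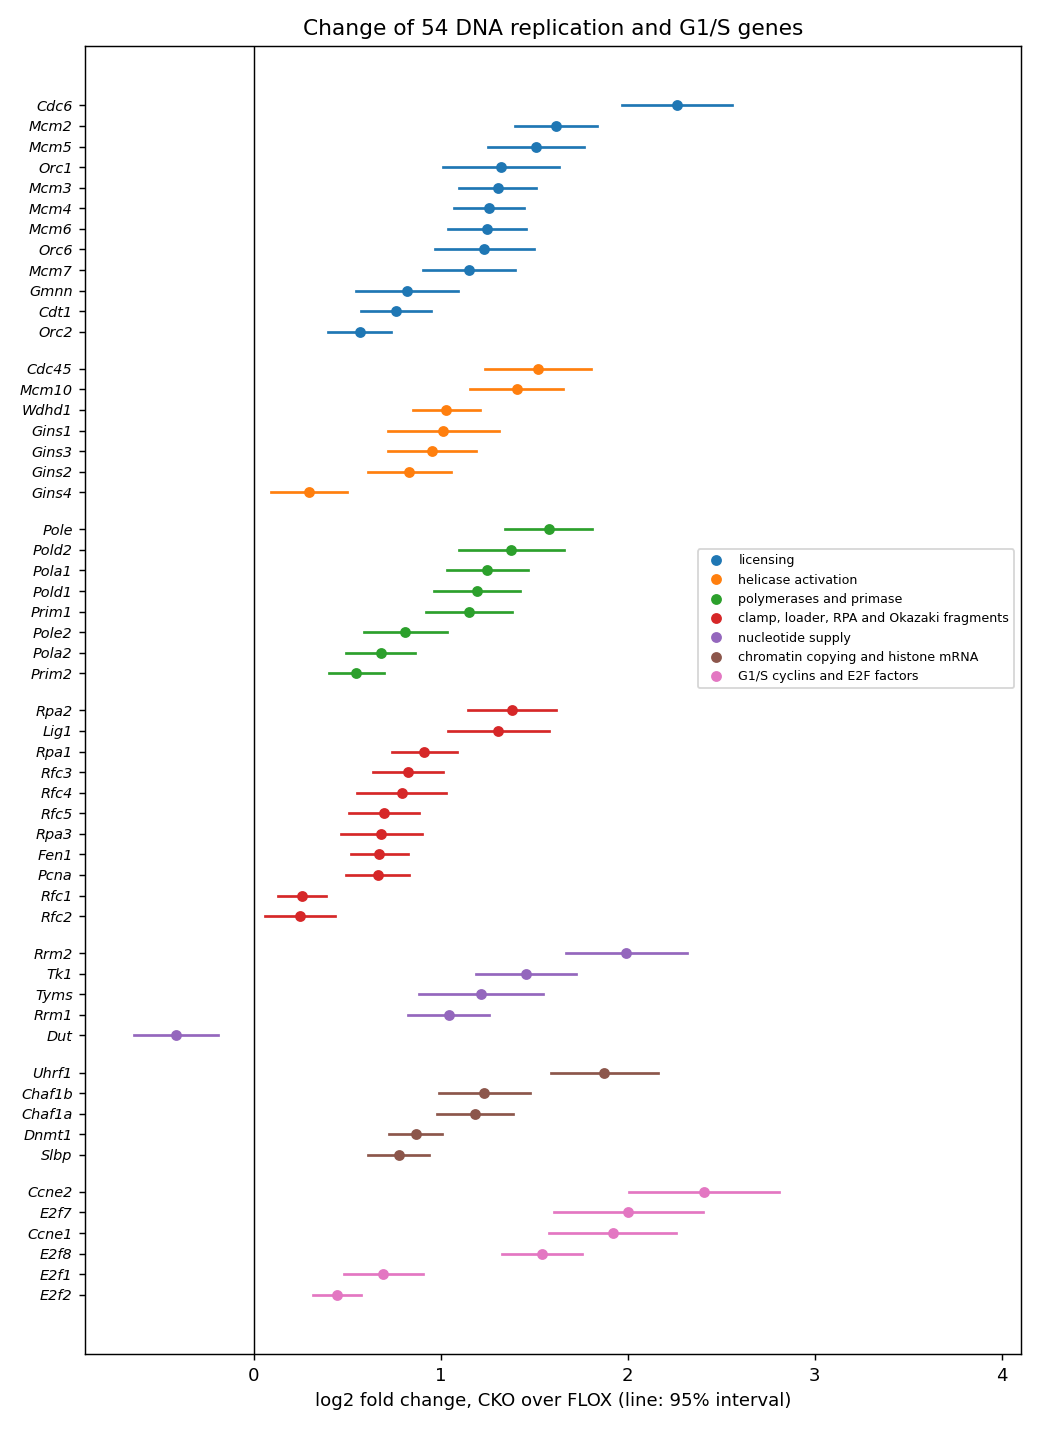
Log2 fold change of each of the 54 members, CKO over FLOX, with its 95% interval as a line, from edgeR's quasi-likelihood fit, coloured by role group and ordered by size within it. All intervals lie right of 0 except that of Dut, and Ccne2, Cdc6 and E2f7 lie farthest right.

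Summed over the members, every CKO library stood above every FLOX library. The 54 genes together came to 4275.6, 4854.2, 4593.7 and 4656.3 CPM in CKO replicates 2, 6, 7 and 8, against 2356.3, 2098.2, 2665.4 and 2165.3 CPM in FLOX replicates 3, 4, 6 and 7. The ratio of the means was 1.98, and the spread within each genotype was far smaller than the gap between them. By role, the ratio of summed means was 2.35 for licensing, 2.01 for helicase activation, 2.15 for polymerases and primase, 1.62 for the clamp, loader, RPA and Okazaki genes, 2.03 for nucleotide supply, 2.12 for chromatin copying and 2.04 for the cyclins and E2F factors. The clamp and loader genes thus had the smallest ratio of the 7 groups, and the sums of the groups did not overlap in any of them.

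**Figure D2:**
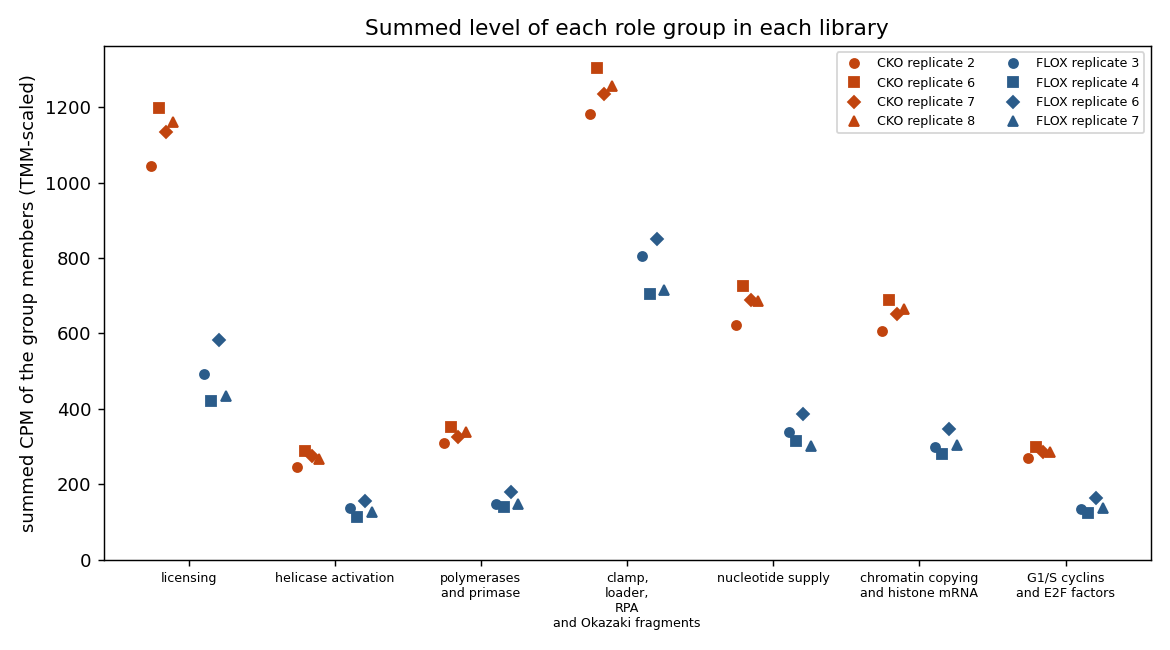
Summed CPM of the members of each role group, one point per library, CKO (orange) left of FLOX (blue) and the replicate by marker shape. In all 7 groups the 4 CKO points lie above the 4 FLOX points, and FLOX replicate 6 is the highest FLOX point.

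Origin licensing genes rose as a group, with 12 of 12 members higher and a median log2 fold change of 1.25. In this and the following accounts, values are listed for CKO replicates 2, 6, 7 and 8 and then for FLOX replicates 3, 4, 6 and 7. Cdc6 (ENSMUSG00000017499, chromosome 11, 98907801 to 98923940, mm10), the ATPase that joins the origin recognition complex to load MCM, stood at 22.4, 27.4, 27.4 and 28.8 CPM in CKO, against 5.54, 4.23, 7.01 and 5.04 CPM in FLOX. The groups were far apart, and the lowest CKO library was CKO replicate 2. Cdc6 had a log2 fold change of 2.26 (SE 0.14, edgeR adjusted p = 2.23e-07), the largest of the group.

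Mcm2 to Mcm7, the 6 subunits of the helicase ring, all rose, by 1.15 to 1.62. Mcm2 (ENSMUSG00000002870, chromosome 6, 88883474 to 88898780) was at 85.2, 97.1, 92.8 and 90.3 CPM in CKO, against 27.8, 27.5, 37.1 and 26.2 CPM in FLOX. FLOX replicate 6 was the highest of the FLOX libraries and still far below CKO. Mcm2 rose by 1.62 (SE 0.10, edgeR adjusted p = 2.96e-07), Mcm5 by 1.51, Mcm3 by 1.30, Mcm4 by 1.26, Mcm6 by 1.25 and Mcm7 by 1.15. The reads of the ring were also divided otherwise among its subunits. Per kilobase of exon, Mcm2 made up 10.7 ± 0.20% of the 6 subunits in CKO and 8.70 ± 0.61% in FLOX, and Mcm5 made up 19.1 ± 0.13% in CKO and 16.8 ± 1.01% in FLOX (SD, 4 libraries each). The share of Mcm7 was 15.8 ± 0.48% in CKO and 17.8 ± 0.61% in FLOX, and that of Mcm6 was 21.9 ± 0.52% in CKO and 23.2 ± 0.49% in FLOX. For these 4 subunits the libraries of the groups did not overlap, whereas the shares of Mcm3 and Mcm4 did. The shares are given as descriptions, without a test. Of Mcm7 exon bases, 10.8% overlap Ap4m1 and 2.16% overlap Cops6, both on the opposite strand. Their log2 fold changes were -0.13 and 0.07.

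Licensing is limited by Cdt1, the loader of MCM, and its inhibitor geminin (Gmnn). Cdt1 stood at 58.5, 62.6, 64.1 and 64.9 CPM in CKO, against 36.9, 33.2, 43.6 and 33.6 CPM in FLOX. It rose by 0.76 (SE 0.09, edgeR adjusted p = 1.9e-05), and every CKO library was above FLOX. Gmnn was at 60.5, 71.7, 67.0 and 68.2 CPM in CKO, against 42.3, 31.3, 46.8 and 30.7 CPM in FLOX, and rose by 0.82 (SE 0.12, edgeR adjusted p = 0.000239). Loader and inhibitor thus rose together, and their ratio per kilobase was 0.509 ± 0.02 in CKO and 0.538 ± 0.06 in FLOX (SD, 4 libraries each), with overlapping libraries. Among the subunits of the origin recognition complex, Orc1 rose by 1.32, Orc6 by 1.23 and Orc2 by 0.57. The other 3 subunits are not members and are named here after their values were seen. Orc3 had a log2 fold change of 0.01 (95% interval -0.21 to 0.22), Orc4 of 0.10 (-0.07 to 0.26) and Orc5 of 0.01 (-0.17 to 0.18), and none was called. Of Orc2 exon bases, 24.0% overlap Nif3l1 on the opposite strand, whose log2 fold change was 0.29.

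**Figure D3:**
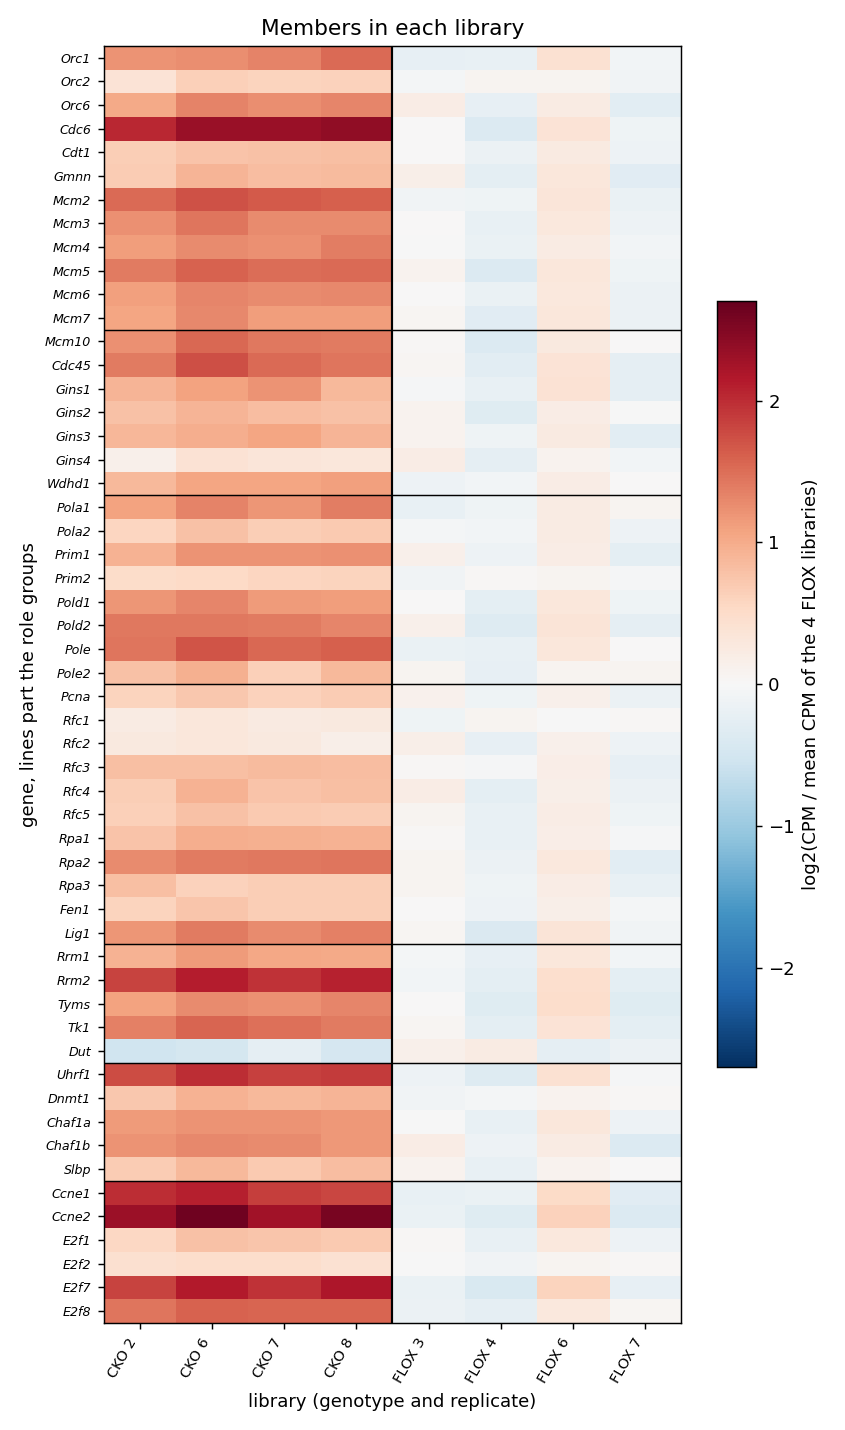
Level of each member in each library as log2 of its CPM over the mean of the 4 FLOX libraries (red above, blue below), with CKO left of FLOX and lines between role groups. The CKO columns are red in every gene but Dut, and for most genes CKO replicate 2 is the palest CKO column and FLOX replicate 6 the reddest FLOX column.

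Helicase activation genes also rose without exception, 7 of 7, with a median of 1.01. Cdc45 (ENSMUSG00000000028, chromosome 16, 18780447 to 18811987), the factor that joins MCM and GINS in the active helicase, was at 32.6, 41.0, 35.7 and 33.6 CPM in CKO, against 12.8, 10.2, 15.9 and 10.5 CPM in FLOX. It had the largest change of the group (1.52, SE 0.13, edgeR adjusted p = 2.41e-06), and the groups did not overlap. Wdhd1, a scaffold that ties polymerase alpha to the helicase, stood at 56.5, 64.1, 64.5 and 66.5 CPM in CKO, against 27.8, 29.2, 35.1 and 30.9 CPM in FLOX, and had the smallest p (1.03, SE 0.08, edgeR adjusted p = 1.69e-06). Mcm10, which helps start the helicase, rose by 1.41.

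The 4 subunits of GINS, which act as a complex, differed in size of change. Gins1 rose by 1.01, Gins3 by 0.95 and Gins2 by 0.83. Gins4 stood at 34.6, 41.0, 39.2 and 38.5 CPM in CKO, against 35.7, 26.3, 33.1 and 29.8 CPM in FLOX, so that FLOX replicate 3 lay above CKO replicate 2. It rose by 0.29 (SE 0.09, edgeR adjusted p = 0.0217), and the call was lost without CKO replicate 6 (adjusted p = 0.0525) or without FLOX replicate 4 (adjusted p = 0.0553). Gins2 is less certain than the others for another reason, since 70.7% of its exon bases overlap Gse1 on the opposite strand (log2 fold change of Gse1 0.18) and the strand setting of the counting is not given in the sources used here.

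All 8 polymerase and primase members rose, with a median of 1.17. Pole (ENSMUSG00000007080, chromosome 5, 110286306 to 110337474), the catalytic subunit of the leading-strand polymerase epsilon, was at 57.0, 67.8, 60.8 and 64.1 CPM in CKO, against 18.4, 18.2, 25.9 and 20.9 CPM in FLOX. Its log2 fold change of 1.58 (SE 0.11, edgeR adjusted p = 5.28e-07) was the largest of the group, with no overlap. Pole2, an accessory subunit of the same polymerase, rose by 0.81. For the lagging strand, Pold1 and Pold2 of polymerase delta rose by 1.19 and 1.38. Pola1 and Pola2 of polymerase alpha rose by 1.25 and 0.68, and the primase subunits Prim1 and Prim2 by 1.15 and 0.55. The other subunits of polymerases delta and epsilon are not members and are named here after their values were seen. Pold3 (0.41), Pole3 (0.30) and Pole4 (0.45) were called higher, and Pold4 (-0.07) was not called.

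The partners within these complexes did not rise by the same amount. Per kilobase, the Pole2 to Pole ratio was 1.12 ± 0.08 in CKO and 1.93 ± 0.27 in FLOX, and the Pola2 to Pola1 ratio was 1.35 ± 0.06 in CKO and 2.01 ± 0.21 in FLOX. In the opposite direction, Prim1 to Prim2 was 1.49 ± 0.11 in CKO and 0.982 ± 0.15 in FLOX (SD, 4 libraries each). The libraries of the groups did not overlap in any of the 3 ratios. These and the other ratios between partner genes are given as descriptions, without a test. How often other pairs of genes separate in this way was not computed. Separation was common among single genes: of 11519 tested, 2613 had all CKO libraries above FLOX and 2304 had all below.

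The clamp, loader, RPA and Okazaki genes had the smallest median change (0.70), although 11 of 11 rose. Pcna (ENSMUSG00000027342, chromosome 2, 132249162 to 132253314), the sliding clamp, was at 466, 515, 479 and 498 CPM in CKO, against 337, 286, 337 and 275 CPM in FLOX. It was the most abundant member per kilobase in both groups (322 ± 14.3 CPM per kilobase in CKO and 204 ± 21.7 in FLOX), and it rose by 0.66 (SE 0.08, edgeR adjusted p = 2.3e-05) with no overlap. Rpa2 (ENSMUSG00000028884, chromosome 4, 132768332 to 132778752), the middle subunit of RPA, stood at 42.5, 46.7, 47.6 and 48.3 CPM in CKO, against 18.7, 15.8, 21.6 and 14.6 CPM in FLOX. Its rise of 1.38 (SE 0.11, edgeR adjusted p = 1.34e-06) was the largest and had the smallest p of the group, and no library overlapped. Rpa1 rose by 0.91 and Rpa3 by 0.68.

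The replication factor C genes, whose products load PCNA, were mixed in size. Rfc3 rose by 0.82, Rfc4 by 0.79 and Rfc5 by 0.70. The large subunit Rfc1 rose by 0.26 (SE 0.06, edgeR adjusted p = 0.00347). Rfc2 was at 71.0, 72.5, 70.4 and 65.8 CPM in CKO, against 66.0, 50.8, 64.9 and 53.8 CPM in FLOX, where CKO replicate 8 lay below FLOX replicate 3. Its log2 fold change of 0.25 (SE 0.09, edgeR adjusted p = 0.0330) was the smallest rise of all members, and the call was lost without CKO replicate 6 (adjusted p = 0.0615), without FLOX replicate 4 (0.0901) or without FLOX replicate 7 (0.0801). Exons of Rfc5, Rfc4 and Rfc2 overlap genes on the opposite strand by 15.4%, 14.8% and 19.1%. The partner of Rfc5, Wsb2, had a log2 fold change of -0.80, that of Rfc4, Eif4a2, 0.02 and that of Rfc2, Lat2, -0.31. On the lagging strand, the flap nuclease Fen1 rose by 0.67 and the ligase Lig1 by 1.31.

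Nucleotide supply held both a strong rise and the only fall. Rrm2 (ENSMUSG00000020649, chromosome 12, 24708241 to 24714146), the small subunit of ribonucleotide reductase, stood at 165, 203, 182 and 198 CPM in CKO, against 44.7, 39.2, 63.9 and 39.1 CPM in FLOX. It rose by 1.99 (SE 0.15, edgeR adjusted p = 2.26e-06) with no overlap. The large subunit Rrm1 rose by 1.04, so that the Rrm2 to Rrm1 ratio per kilobase was 1.07 ± 0.06 in CKO and 0.549 ± 0.05 in FLOX (SD, 4 libraries each), with all CKO libraries above FLOX. Thymidine kinase 1 (Tk1) rose by 1.46 and thymidylate synthase (Tyms) by 1.22.

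Dut (ENSMUSG00000027203, chromosome 2, 125247190 to 125258608) encodes the enzyme that removes dUTP and makes the precursor of dTMP. It stood at 64.6, 67.5, 79.47 and 68.4 CPM in CKO, against 102, 109, 79.54 and 83.2 CPM in FLOX. The ranges nearly touched, because CKO replicate 7 and FLOX replicate 6 had almost the same value. Dut fell by 0.42 in log2 fold change (95% interval -0.64 to -0.19, SE 0.10, edgeR adjusted p = 0.00591). The call held in 16 of 17 other settings. It was lost with the replicate number as a block (-0.15, edgeR adjusted p = 0.361). Among the 54 members ordered by CPM per kilobase, Dut was in place 14 in CKO (32.4) and in place 2, next after Pcna, in FLOX (43.3).

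**Figure D4:**
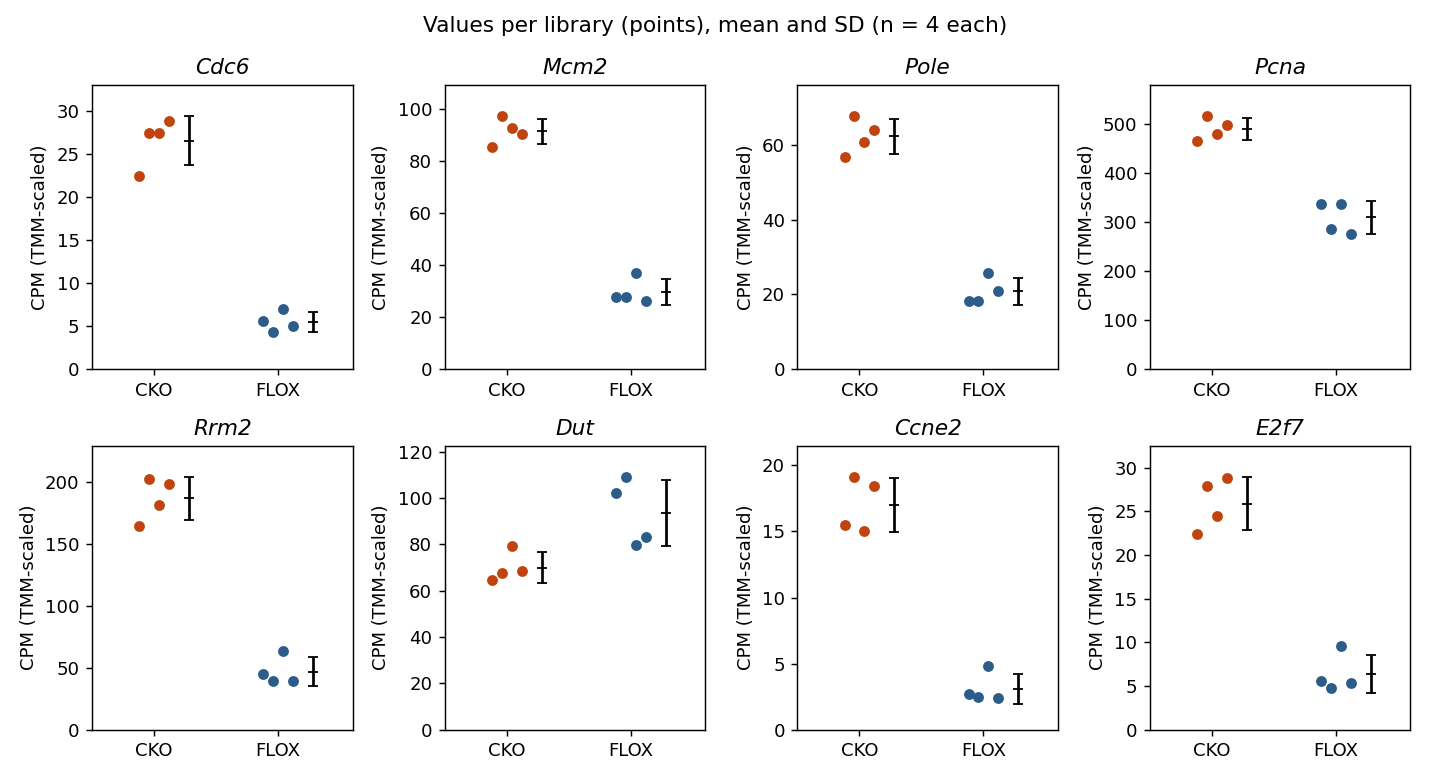
CPM of 8 members in each library (points), with the mean and SD (bars, n = 4), CKO left of FLOX and axes starting at 0. For 7 of the genes all CKO points lie above all FLOX points, and for Dut they lie below, with the highest CKO and lowest FLOX points nearly level.

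The genes of chromatin copying all rose, 5 of 5, with a median of 1.18. Uhrf1 (ENSMUSG00000001228, chromosome 17, 56303321 to 56323486), which binds hemimethylated DNA behind the fork and brings in the methyltransferase Dnmt1, was at 128, 151, 136 and 140 CPM in CKO, against 34.3, 29.7, 49.8 and 36.7 CPM in FLOX. It rose by 1.88 (SE 0.13, edgeR adjusted p = 1.07e-06), with no overlap, and Dnmt1 rose by 0.87. The histone chaperone subunits Chaf1a and Chaf1b rose by 1.18 and 1.23, and their ratio per kilobase, 0.813 ± 0.02 in CKO and 0.853 ± 0.11 in FLOX (SD, 4 libraries each), overlapped between the groups. Of the Chaf1a exon bases, 48.6% overlap Ubxn6 on the opposite strand, which had a log2 fold change of -0.41. Slbp, which binds the stem-loop of histone mRNA, rose by 0.78.

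The cyclin E and E2F genes had the largest median (1.73), and 6 of 6 rose. Ccne2 (ENSMUSG00000028212, chromosome 4, 11191351 to 11204779), a cyclin that activates CDK2 at S phase entry, stood at 15.5, 19.1, 15.04 and 18.4 CPM in CKO, against 2.73, 2.50, 4.80 and 2.41 CPM in FLOX. Its log2 fold change of 2.41 (SE 0.18, edgeR adjusted p = 1.2e-06) was the largest of all 54, and the groups did not overlap. Ints8 overlaps 19.0% of its exon bases on the opposite strand and had a log2 fold change of 0.11. The paralogue Ccne1 was at 24.0, 26.1, 22.1 and 21.1 CPM in CKO, against 5.25, 5.37, 8.69 and 4.89 CPM in FLOX. It rose by 1.92 (SE 0.16, edgeR adjusted p = 1.86e-06), and FLOX replicate 6 was the FLOX library nearest to CKO for both cyclins.

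Of the 4 E2F members, E2f7 and E2f8 encode atypical repressors and E2f1 and E2f2 encode activators. E2f7 (ENSMUSG00000020185, chromosome 10, 110745439 to 110787384) stood at 22.4, 27.9, 24.5 and 28.8 CPM in CKO, against 5.61, 4.76, 9.55 and 5.39 CPM in FLOX, a rise of 2.00 (SE 0.18, edgeR adjusted p = 5.3e-06). E2f8 was at 69.9, 77.7, 76.7 and 76.9 CPM in CKO, against 23.2, 21.9, 31.2 and 26.9 CPM in FLOX, a rise of 1.54 (SE 0.10, edgeR adjusted p = 3.7e-07). Neither gene overlapped between the groups, and E2f8 had the smallest p of its group. E2f1 was at 53.0, 61.9, 60.2 and 58.5 CPM in CKO, against 36.6, 31.2, 43.5 and 32.6 CPM in FLOX, a rise of 0.69 (SE 0.10, edgeR adjusted p = 0.00011) with no overlap. E2f2 rose by 0.45. Of the E2F genes outside the members, E2f6 (0.84) and E2f3 (0.51) rose, while E2f4 (0.15) and E2f5 (0.23) were not called. The E2f1 to E2f7 ratio per kilobase was 5.68 ± 0.48 in CKO and 14.8 ± 2.36 in FLOX, and the Ccne2 to Ccne1 ratio was 0.458 ± 0.06 in CKO and 0.317 ± 0.02 in FLOX (SD, 4 libraries each), both without overlap.

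**Figure D5:**
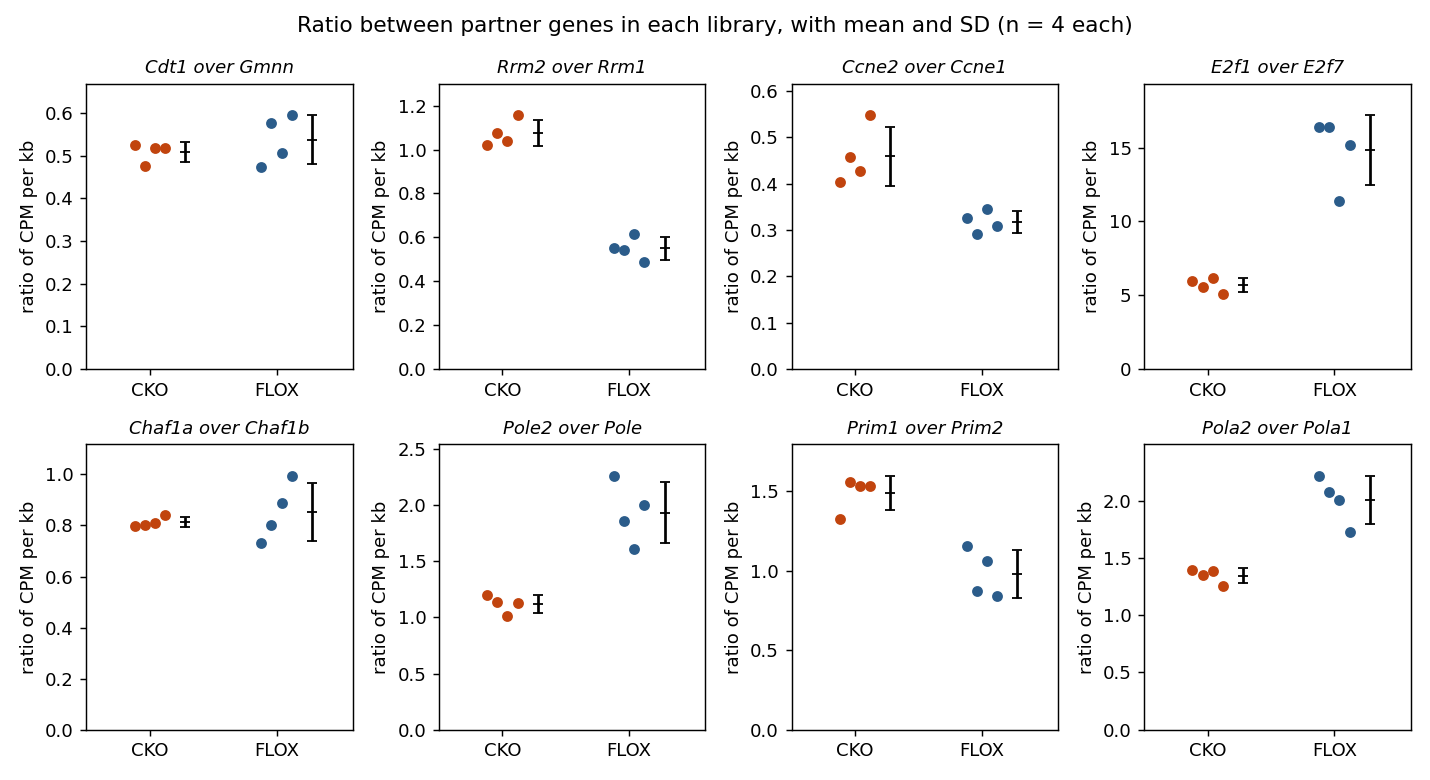
Ratio of CPM per kilobase between partner genes in each library (points), with the mean and SD (bars, n = 4), CKO left of FLOX and axes starting at 0. The Rrm2 to Rrm1, Ccne2 to Ccne1 and Prim1 to Prim2 ratios are higher in every CKO library, E2f1 to E2f7, Pole2 to Pole and Pola2 to Pola1 are lower in every CKO library, and the other 2 ratios overlap.

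The libraries at the ends of each group were often the same across the members. CKO replicate 2 was the lowest CKO library for 43 of 54 members (79.6%) and CKO replicate 6 the highest for 38 (70.4%). Over the 11519 tested genes, CKO replicate 2 was the lowest CKO library for 3861 and CKO replicate 6 the highest for 2304. FLOX replicate 6 was the highest FLOX library for 47 members (87.0%), against 2426 of all tested genes. FLOX replicate 4 was the lowest for 30 (55.6%), against 2770 of all tested genes. FLOX replicate 7 was the lowest for 17 (31.5%), near its share over all tested genes (3342, or 29.0%). CKO replicate 2 was also the library with the fewest pairs counted in genes (11764855), and FLOX replicate 6 that with the most (18939948). FLOX replicate 6 had the lowest share of pairs assigned (66.3%). The part of depth in this order was not tested. Without FLOX replicate 6 the median of the members was 1.25, and without both CKO replicate 2 and FLOX replicate 6, a choice made after the data were seen, it was 1.32 with 53 members still higher and 1 lower.

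Other genes of replication followed in part. Of 42 further tested genes of this kind, 31 were higher, 1 was lower and 10 were not called, with a median log2 fold change of 0.72. Dck, the kinase that salvages deoxynucleosides, averaged 352 ± 12.5 CPM in CKO and 207 ± 8.09 CPM in FLOX (mean ± SD, 4 libraries each), a rise of 0.77 (SE 0.06, edgeR adjusted p = 9.25e-07). Cdc7, the kinase that fires licensed origins, rose by 1.19 (SE 0.09, edgeR adjusted p = 1.07e-06), and Hells, a chromatin remodeller of DNA methylation, rose by 2.15 (SE 0.16, edgeR adjusted p = 1.44e-06). Samhd1, a phosphohydrolase that degrades deoxynucleotides, averaged 543 ± 22.4 CPM in CKO and 656 ± 37.8 CPM in FLOX and fell by 0.27 (SE 0.06, edgeR adjusted p = 0.00323).

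Of 28 further tested genes of G1/S control, 18 were higher, 2 lower and 8 not called, with a median of 0.57. Tfdp1, the dimer partner of E2F factors, averaged 134 ± 7.92 CPM in CKO and 70.0 ± 4.05 CPM in FLOX (mean ± SD, 4 libraries each), a rise of 0.93 (SE 0.07, edgeR adjusted p = 6.62e-07). The retinoblastoma relative Rbl1 (p107) rose by 1.02 (edgeR adjusted p = 2.29e-06), and Fbxo5 (EMI1), an inhibitor of the anaphase-promoting complex, rose by 1.46 (edgeR adjusted p = 2.76e-06). Fbxw7, the ubiquitin ligase subunit that targets cyclin E for degradation, averaged 40.9 ± 1.70 CPM in CKO and 68.8 ± 4.72 CPM in FLOX and fell by 0.75 (SE 0.07, edgeR adjusted p = 3.27e-06). Among the inhibitors of cyclin-dependent kinases, Cdkn1c (p57) fell by 1.40 (SE 0.14, edgeR adjusted p = 8.12e-06) and averaged 3.65 ± 0.74 CPM in CKO and 9.58 ± 0.86 CPM in FLOX. Cdkn1a (p21) did the opposite and rose by 1.06 (SE 0.11, edgeR adjusted p = 7.89e-06) to an average of 407 ± 31.7 CPM in CKO, against 194.6 ± 32.5 CPM in FLOX. Cdkn2c (0.73) and Cdkn2d (0.64) were also called higher, while Cdkn1b (-0.24), Cdkn2a (0.38) and Cdkn2b (0.38) were not called.

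Markers of other marrow cells also differed with genotype. The summed CPM of 9 neutrophil and precursor markers was 4.68 to 10.5 in CKO and 1.99 to 3.43 in FLOX, with Elane at 0 in every library. The 5 stem and progenitor markers summed to 32.9 to 39.9 CPM in CKO and 10.7 to 13.8 CPM in FLOX, of which Cd34 made up 27.7 to 34.8 CPM in CKO and 2.91 to 6.53 CPM in FLOX. Kit, another marker of this list, was lower in CKO (4.67 ± 0.49 CPM in CKO and 7.53 ± 0.79 CPM in FLOX). The part of such cells in the rise of the replication genes was not tested.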

How the data were processed

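Total RNA of the 8 libraries was sequenced as read pairs on a NovaSeq instrument, per the labels' protocols. Alignment used HISAT2 2.0.5 with the mm10 genome and counting used HTSeq, per the submitters' processing notes. Not given in the sources used here are the version of HTSeq, its annotation and whether strand was used, so genes with exons on both strands are uncertain: 12 members share exon bases with another gene, and 2 share more than 30%. Each deposited file holds raw counts, whole numbers of read pairs for each gene symbol. HTSeq's classes of unassigned pairs stayed out of library sizes and tests, and 66.3% to 71.7% of pairs were assigned.

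Counts were tested with edgeR 4.0.16 in R 4.3.3 (filterByExpr with a minimum count of 10 and a total of 15, TMM factors, robust quasi-likelihood F test of CKO against FLOX). Benjamini-Hochberg adjustment covered the 11519 genes tested, with calls at 0.05. Standard errors equal |log2 fold change| over the root of F, and 95% intervals use the moderated degrees of freedom. The common coefficient of biological variation was 8.77%. CPM use TMM-scaled library sizes, and CPM per kilobase divide by the exon length of protein-coding transcripts in GENCODE M21. Precision rests on the counts and on 4 libraries a group.

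The members and the gene lists were chosen with earlier results of these data known. Values in all libraries are given for the member of smallest p and of largest change in each role group, members against their group's direction and a fixed set of key genes. Further pathway genes are the 3 of smallest p in each list, those that fell, and Cdkn1a. Gins4 and Rfc2, whose ranges overlapped, and the Orc and polymerase subunits outside the members were added after values were seen. The same holds for the other inhibitors of cyclin-dependent kinases. Other settings were upper-quartile and RLE factors, no filter, 1 CPM in 4 libraries, DESeq2 1.42.0, limma-voom (limma 3.58.1), a 2-fold threshold, removal of the 20 most abundant genes, each library left out, and the replicate number as a block.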

Additional observations from a re-analysis of the deposited data

Results flagged for a closer look

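In 7 of the 108 groups of 4 libraries looked at (54 members in each genotype), 1 library stood apart from the other 3 by Dixon's criterion for 4 values. Chance alone gives about 1 in 20 groups. In CKO these were all replicate 2, which lay below the others. Orc2 was at 39.6 CPM there, against 46.5 to 47.5 CPM in the other CKO libraries, Prim1 was at 30.9 CPM, against 37.3 to 38.0 CPM, and E2f8 was at 69.9 CPM, against 76.7 to 77.7 CPM. In FLOX, 3 of 4 were replicate 6, which lay above the others. Mcm2 was at 37.1 CPM there, against 26.2 to 27.8 CPM in the other FLOX libraries, Ccne1 was at 8.69 CPM, against 4.89 to 5.37 CPM, and Ccne2 was at 4.80 CPM, against 2.41 to 2.73 CPM. The exception was Pole2 in FLOX replicate 4, at 7.79 CPM, against 9.53 to 9.57 CPM in the other FLOX libraries. None of the 7 values reached the range of the other genotype.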

How the results depend on the processing

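Each of the 54 members was recomputed under 17 alternatives (the 2-fold threshold apart), and 50 kept their direction and call in all of them. The exceptions were Gins4, Rfc1, Rfc2 and Dut. Replicate numbers 6 and 7 occur in both groups. Same-numbered libraries did not deviate together (correlations of 0.139 and -0.07), but these values alone cannot settle whether the numbers pair them. A block on the replicate number absorbs each library whose number is not shared. That fit therefore compares CKO with FLOX within replicates 6 and 7 alone. With this block, 51 members were higher and 0 lower, Dut being at -0.15 (edgeR adjusted p = 0.361). Rfc1 was at an edgeR adjusted p of 0.0900 and Rfc2 at 0.0774. Over all genes the block gave 1983 higher and 1516 lower, for the other replication genes 27 and 0, and for the other G1/S genes 18 and 3. Calls that also needed an estimated change of more than 2-fold left 31 members higher and 0 lower, and 538 and 135 of all genes. They left 17 and 0 of the other replication genes and 6 and 1 of the other G1/S genes.

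Leaving out 1 library at a time gave 51 to 53 members higher and 1 lower, with a median log2 fold change of 1.09 to 1.25 (the highest without FLOX replicate 6). It gave 2491 to 2885 genes higher and 1782 to 2491 lower, 30 to 32 of the other replication genes higher and 1 to 2 lower (2 without FLOX replicate 6), and 17 to 19 of the other G1/S genes higher and 2 to 3 lower. Without both CKO replicate 2 and FLOX replicate 6, chosen after the data were seen, the median was 1.32. The uncalled log2 fold changes of Orc3 (-0.056 to 0.088) and Orc5 (-0.048 to 0.051) changed sign between libraries left out. The cause of these differences was not tested. Opa1 was called in 3 of 17 alternatives. Depth limits the low members most, such as Ccne2 in FLOX.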
